A study of Homo sapiens with 24 samples.

Results

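Interferon-stimulated genes are the genes that a cell switches on when it senses interferon, and 42 of them, taken from a fixed list of names, were followed across all 24 tumors. They are 42 of the 60230 genes in the tables. All 42 passed the filter on low counts, as did 18242 genes in all. The tumors were grown in mice from AsPC-1, a human pancreatic ductal adenocarcinoma cell line, and their polyA RNA was sequenced. Mice received IK-595, described in the labels as a MEK-RAF molecular glue, by mouth at 6 mg/kg in 3 doses given every other day, or 3 doses of the vehicle (5% DMSO and 95% PEG400). Tumors were taken 2 h after the last vehicle dose, or 2, 4, 8, 24 and 48 h after the last IK-595 dose, with 4 animals in each of the 6 groups. All vehicle tumors were taken at 2 h, so a later IK-595 group also differs from vehicle in the hours since dosing, and these 2 differences cannot be told apart. All tumors come from 1 cell line. Host mouse cells are part of each tumor, and in a bulk sample fewer cells of a type and less RNA per cell cannot be told apart.

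Depth was 10516000 to 20639340 estimated counts per tumor, with the lowest in 4 h tumor 2. All 9 epithelial markers checked were detected, with summed levels of 5210 to 12400 TPM across tumors (TPM is the share of a transcript among all, per length). DUSP6 and SPRY4, textbook outputs of the MAPK pathway downstream of MEK, checked the dosing. DUSP6 averaged 7.17 CPM at 8 h, against 255 CPM in vehicle tumors, and SPRY4 averaged 4.22 CPM at 8 h, against 159 CPM in vehicle tumors. Neither passed the test at 48 h (adjusted p = 0.968 and 0.592). Of the 5 MAPK outputs checked, however, 2 were still called lower than vehicle at 48 h. PHLDA1 averaged 144 CPM at 48 h, against 281 CPM in vehicle tumors, and ETV5 13.3 CPM, against 27.4 CPM. CPM is the count of a gene scaled to the TMM-scaled library size, and is not divided by gene length. A gene is said to have risen or fallen when its adjusted p in an IK-595 group against vehicle was under 0.05, by the quasi-likelihood test of edgeR with Benjamini-Hochberg adjustment over all 18242 genes. A call is said to be lost where an alternative lifts that adjusted p to 0.05 or more. Changes are given as log2 fold change, IK-595 over vehicle, ± its standard error, with n = 4 tumors in each group.

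Type I and type III interferons bind receptors on the cell surface, and the kinases JAK1 and TYK2 then phosphorylate STAT proteins. STAT2 and IRF9 are parts of the resulting complex ISGF3, a transcription factor that binds a promoter element called ISRE (interferon-stimulated response element). Interferon gamma acts mainly through another promoter element, GAS (gamma-activated sequence). IRF1 and IRF7 are themselves interferon-induced factors that bind ISRE-like elements, and several of these genes also keep a basal level without any interferon. Many epithelial tumor lines hold such a basal level.

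Promoters of 9 of these genes are shown, 8 of them because they carry an element by which interferon acts and SAMD9L as the neighbor without one, in genes that later rose (IFITM1, IFITM3, PSMB10, IRF1, SAMD9L), fell (OAS3, HERC5, SAMD9) or were not called (ISG15). Each line runs 5′ to 3′ along the gene, from 150 bases before to 20 bases after its RefSeq start in GRCh38.p14. Capitals mark the core of the ISRE, taken as 2 GAAA words with any 2 bases between them, or on the other strand 2 TTTC words spaced likewise, and overlapping matches run together. In IRF1 the capitals mark the GAS word TTCNNNGAA.
IFITM1 (chr11:313890-314059, plus strand): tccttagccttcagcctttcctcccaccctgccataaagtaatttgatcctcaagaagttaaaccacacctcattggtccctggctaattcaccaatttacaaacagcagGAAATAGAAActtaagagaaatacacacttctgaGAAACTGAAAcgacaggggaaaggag
IFITM3 (chr11:320841-321010, minus strand): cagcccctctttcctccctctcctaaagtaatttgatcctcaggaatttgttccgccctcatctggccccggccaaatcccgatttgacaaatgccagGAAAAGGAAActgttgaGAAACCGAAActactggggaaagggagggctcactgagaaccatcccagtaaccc
PSMB10 (chr16:67936831-67937000, minus strand): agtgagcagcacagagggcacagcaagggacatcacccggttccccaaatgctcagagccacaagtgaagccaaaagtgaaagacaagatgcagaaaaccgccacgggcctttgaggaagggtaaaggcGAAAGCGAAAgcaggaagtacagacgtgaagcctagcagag
OAS3 (chr12:112938324-112938493, plus strand): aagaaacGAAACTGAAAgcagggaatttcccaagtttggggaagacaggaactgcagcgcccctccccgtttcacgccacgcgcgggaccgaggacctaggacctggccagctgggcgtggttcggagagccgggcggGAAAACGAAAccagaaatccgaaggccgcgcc
HERC5 (chr4:88456969-88457138, plus strand): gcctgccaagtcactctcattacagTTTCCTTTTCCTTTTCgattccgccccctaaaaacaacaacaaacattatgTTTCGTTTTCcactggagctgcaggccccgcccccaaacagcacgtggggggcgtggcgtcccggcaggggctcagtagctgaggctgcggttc
ISG15 (chr1:1013347-1013516, plus strand): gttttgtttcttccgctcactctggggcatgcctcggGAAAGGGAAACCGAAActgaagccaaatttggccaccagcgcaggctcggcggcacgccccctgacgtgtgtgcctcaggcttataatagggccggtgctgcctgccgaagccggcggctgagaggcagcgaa
SAMD9 (chr7:93117960-93118129, minus strand): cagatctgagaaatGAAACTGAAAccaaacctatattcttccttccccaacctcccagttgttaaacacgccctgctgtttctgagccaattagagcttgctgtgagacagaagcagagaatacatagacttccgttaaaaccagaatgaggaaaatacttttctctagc
SAMD9L (chr7:93148366-93148535, minus strand): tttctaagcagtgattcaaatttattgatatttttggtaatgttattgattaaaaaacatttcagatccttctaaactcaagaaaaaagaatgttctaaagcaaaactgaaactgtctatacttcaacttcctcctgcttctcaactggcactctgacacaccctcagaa
IRF1 (chr5:132490754-132490923, minus strand): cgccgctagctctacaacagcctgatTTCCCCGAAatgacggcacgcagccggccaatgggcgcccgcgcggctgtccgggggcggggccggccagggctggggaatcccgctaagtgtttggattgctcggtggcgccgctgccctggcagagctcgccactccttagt

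RefSeq promoter windows, 300 bases from 250 before to 50 after the start, were matched for 34 of the 42 genes. IRF7, USP18, IFIT2, OAS2, OASL, MX2, IFITM2 and TRIM22 were not matched. Where a gene had several starts, a match in any window counted. The ISRE core was in 25 of the 34 genes (73.5%), while 4.38% of all 27305 genes with windows held it. The GAS word was in 12 of the 34 (35.3%), and in 9.38% of all 27305 genes. No core or GAS word overlapped the printed SAMD9L window, whereas SAMD9, its neighbor on chromosome 7, had a core starting 136 bases before its start. A match is a description of letters and not a binding site, and a window without one says nothing of the factor. The core was in 6 of 11 matched genes that rose at 1 or more times, in 5 of 6 that fell, and in 14 of 17 never called.

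Interferon-stimulated genes did not move as a block after IK-595. Some rose (the IFITM genes, IRF1, STAT2, immunoproteasome subunits, SAMD9L and XAF1), and others fell (OAS1, OAS3, OASL, HERC5 and SAMD9). Textbook markers of an interferon response such as MX1, ISG15, IFI6 and the IFIT genes were called at no time. Not being called does not show that a gene was unchanged, since several of these genes spread widely between vehicle tumors. Over the 5 comparisons with vehicle 13 genes rose at 1 or more times, 8 fell at 1 or more times, 21 were never called, and none was called in both directions. The share of all tested genes with each of these patterns is not given here. Whether this mix differs from that of other genes was therefore not tested.

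At 2 h 10 rose and 5 fell (35.7%, against 26.9% of all genes tested, 13.4% up and 13.6% down). At 4 h 2 rose and 2 fell (9.52%, against 15.1% of all genes, 6.74% up and 8.39% down). At 8 h 12 rose and 8 fell (47.6%, against 44.3%, 20.6% up and 23.7% down). At 24 h 9 rose and 2 fell (26.2%, against 27.5%, 13.7% up and 13.8% down). At 48 h 2 rose and 2 fell (9.52%, against 9.98%, 5.52% up and 4.46% down). The F test over the 5 times called 19 of 42, or 45.2%, against 49.8% of all genes. These shares lie near the background, so the number of calls does not set these genes apart. The 5 comparisons share the same 4 vehicle tumors. The median log2 fold change of the 42 genes at 2, 4, 8, 24 and 48 h was 0.01, 0.03, 0.07, 0.11 and 0.05, beside 0.05, 0.03, 0.07, 0.06 and -0.01 over all genes tested. The rises that held with every tumor of the 2 groups left out in turn numbered 6, 1, 6, 8 and 2 at 2, 4, 8, 24 and 48 h, and the falls that did so 2, 1, 4, 1 and 1. The direction split depended on the scale: at 8 h the tests on log2(TPM + 1) gave 4 rises and 9 falls, and the counts without a low-count filter gave 6 and 7. At 2 h both of these alternatives gave 5 and 5, and at 24 h log2(TPM + 1) gave 3 and 2. The median log2 fold change of all genes moved too, at 8 h by -0.191 on log2(TPM + 1) and -0.079 without the filter. The rises and falls of all genes under these alternatives are not given here. Whether the changed split is particular to the 42 genes was not tested.

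**Figure D1:**
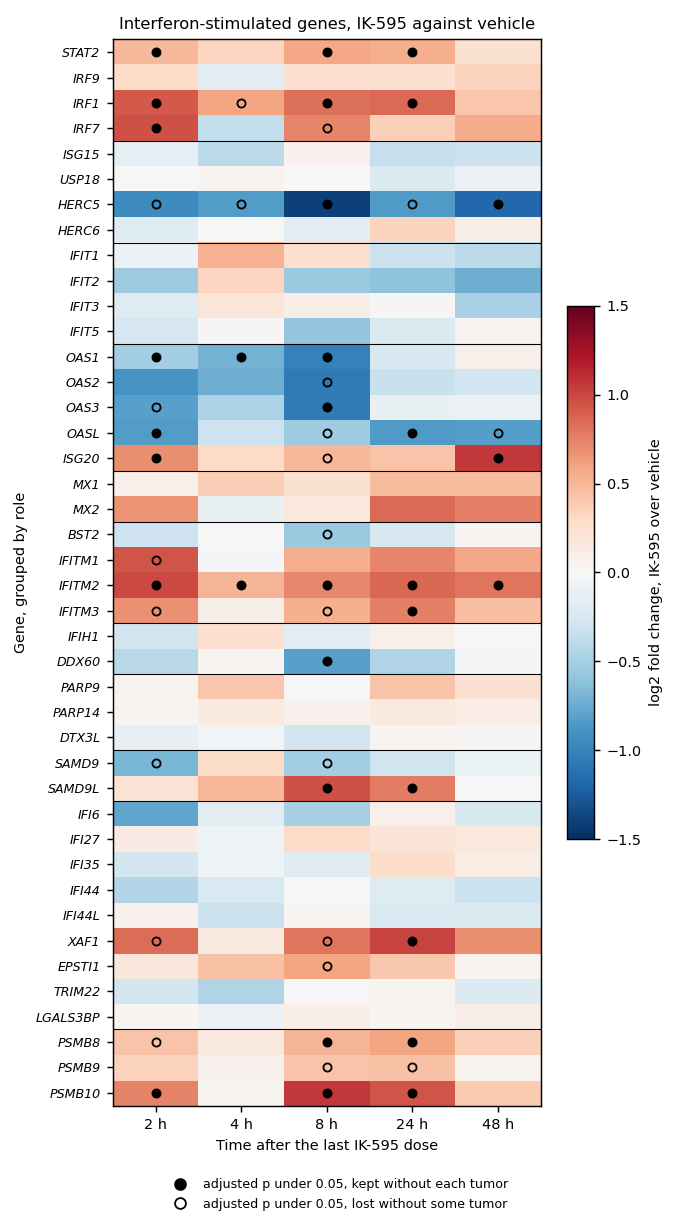
Log2 fold change of each of the 42 genes (rows, grouped by role, with lines between groups) at each time after the last IK-595 dose (columns), IK-595 over vehicle, 4 tumors in each group. Filled dots mark an adjusted p under 0.05 that held with each tumor left out, and open dots mark one that did not. The 8 h column holds 20 dots and the 4 h column 4, and red and blue rows stand side by side within the role groups.

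Among the transcription factors that read the interferon signal, 3 of 4 rose at 2 h, when 13.4% of all genes did, and none fell at any time. STAT2, a subunit of ISGF3, rose at 2, 8 and 24 h. IRF1, a factor induced by interferon gamma and by other inflammatory signals, rose at every time up to 24 h. IRF7, the factor that amplifies type I interferon transcription, rose at 2 and 8 h. IRF9, the DNA-binding part of ISGF3, was called at no single time, with values of -0.17 ± 0.14 at 4 h to 0.35 ± 0.14 at 48 h. The F test over the 5 times did call IRF9 (adjusted p = 0.0298), but not with the GC and length trend removed (F test adjusted p = 0.128).

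IRF1 had 39.1, 38.01, 45.4 and 56.4 CPM in the vehicle tumors, 68.7, 88.7, 84.3 and 96.9 CPM at 2 h and 74.1, 58.5, 68.6 and 68.99 CPM at 4 h. IRF1 levels were 68.6, 64.7, 106 and 77.7 CPM at 8 h, 70.02, 93.2, 68.9 and 90.5 CPM at 24 h and 47.96, 66.4, 52.6 and 71.7 CPM at 48 h. All IRF1 values from 2 to 24 h lay above the highest vehicle tumor, and 2 of 4 tumors did so at 48 h. The IRF1 log2 fold change was 0.92 ± 0.17 (adjusted p = 0.000607) at 2 h, 0.60 ± 0.17 (adjusted p = 0.0183) at 4 h, 0.82 ± 0.17 (adjusted p = 0.00049) at 8 h and 0.85 ± 0.17 (adjusted p = 0.000911) at 24 h. For IRF1, leaving out 1 tumor ended only the 4 h call (4 h tumor 1 or vehicle tumor 2, adjusted p up to 0.0685). Of the changes of the named genes, that of IRF1 at 8 h moved most with the unit. On the deposited TPM scale, which divides by the length of the transcripts that reads were assigned to, IRF1 had 29.7, 23.6, 37.6 and 33.6 TPM at 8 h, against 24.5, 28.1, 25.8 and 39.00 TPM in vehicle tumors, and the log2(TPM + 1) difference was 0.09 (adjusted p = 0.831). On that scale no IRF1 call remained. A change in which IRF1 transcripts were counted was not tested.

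STAT2 had 48.9, 46.3, 55.2 and 53.4 CPM in the vehicle tumors, 58.97, 71.8, 73.5 and 80.9 CPM at 2 h and 76.1, 46.5, 68.4 and 64.7 CPM at 4 h. STAT2 levels were 69.2, 76.1, 85.7 and 74.5 CPM at 8 h, 76.9, 78.4, 65.4 and 77.5 CPM at 24 h and 55.99, 63.4, 57.5 and 61.1 CPM at 48 h. At 2, 8 and 24 h the STAT2 values did not overlap those of vehicle tumors. At 4 h tumor 2 alone lay inside the vehicle range. The STAT2 log2 fold change was 0.48 ± 0.13 (adjusted p = 0.00768) at 2 h, 0.58 ± 0.13 (adjusted p = 0.000811) at 8 h and 0.55 ± 0.13 (adjusted p = 0.00296) at 24 h, rises of 1.4-fold to 1.5-fold. On log2(TPM + 1) these 3 calls were lost at adjusted p of 0.0706, 0.0637 and 0.0528.

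IRF7 had 39.4, 39.1, 51.96 and 64.6 CPM in the vehicle tumors, 56.2, 115, 89.8 and 116 CPM at 2 h and 43.3, 27.4, 47.8 and 31.9 CPM at 4 h. IRF7 levels were 74.9, 75.2, 81.2 and 91.6 CPM at 8 h, 79.1, 56.4, 46.8 and 67.2 CPM at 24 h and 50.2, 70.5, 69.2 and 97.8 CPM at 48 h. At 2 h tumor 1 lay inside the vehicle range and the other 3 above it, and at 8 h the groups did not overlap. IRF7 rose by 0.95 ± 0.24 (adjusted p = 0.00529) at 2 h and 0.73 ± 0.23 (adjusted p = 0.0156) at 8 h. The IRF7 call at 8 h was lost without vehicle tumor 2 (adjusted p up to 0.055), and with the GC and length trend removed (0.26, adjusted p = 0.211). IRF7 has the highest GC content of the 42 genes, 67.2%.

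The IFITM proteins sit in cell membranes and block the fusion of viruses. IFITM2 rose at all 5 times, IFITM3 at 2, 8 and 24 h, and IFITM1 at 2 h. BST2 (tetherin), which holds budding viruses to the cell surface, fell at 8 h.

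IFITM2 had 81.2, 81.4, 75.5 and 83.6 CPM in the vehicle tumors, 144, 159, 182 and 155 CPM at 2 h and 124, 83.4, 122 and 127 CPM at 4 h. IFITM2 levels were 135, 116, 139 and 141 CPM at 8 h, 119, 156, 154 and 155 CPM at 24 h and 128, 153, 119 and 161 CPM at 48 h. Vehicle tumors lay within 75.5 to 83.6 CPM, and 19 of the 20 IK-595 tumors lay above that range. The exception was 4 h tumor 2, the tumor with the lowest depth and the most fibroblast RNA. The IFITM2 log2 fold change was 0.99 ± 0.13 (adjusted p = 3.14e-05) at 2 h, 0.50 ± 0.13 (adjusted p = 0.011) at 4 h, 0.72 ± 0.13 (adjusted p = 0.000165) at 8 h, 0.86 ± 0.13 (adjusted p = 9.27e-05) at 24 h and 0.80 ± 0.13 (adjusted p = 0.00051) at 48 h. Each call held with any 1 tumor left out. The 4 h call was lost on log2(TPM + 1) (adjusted p = 0.11) or without the low-count filter (adjusted p = 0.0522).

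IFITM3 had 129, 98.1, 83.6 and 141 CPM in the vehicle tumors, 153, 202, 172 and 198 CPM at 2 h and 134, 63.3, 135 and 147 CPM at 4 h. IFITM3 levels were 176, 143, 157 and 179.7 CPM at 8 h, 166, 208, 201 and 188 CPM at 24 h and 121, 146, 147 and 204 CPM at 48 h. IFITM3 did not overlap between groups at 2, 8 and 24 h. It rose by 0.68 ± 0.21 (adjusted p = 0.0188) at 2 h, 0.54 ± 0.21 (adjusted p = 0.0401) at 8 h and 0.76 ± 0.21 (adjusted p = 0.00975) at 24 h. For IFITM3, leaving out 1 tumor ended the 2 h call (2 h tumor 2 or 4 or vehicle tumor 2 or 3, adjusted p up to 0.0652) and the 8 h call (8 h tumor 1, 3 or 4 or vehicle tumor 2 or 3, adjusted p up to 0.134). With the GC and length trend removed the 2 h and 8 h calls were lost (adjusted p = 0.187 and 0.663), and on log2(TPM + 1) all 3 were, at adjusted p of 0.114, 0.311 and 0.0603.

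IFITM1 averaged 209 ± 52.6 CPM at 2 h, against 109 ± 37.6 CPM in vehicle tumors (SD), and rose by 0.94 ± 0.33 (adjusted p = 0.0385). That call was lost without 2 h tumor 2 or 4 or vehicle tumor 1, 2 or 3 (adjusted p up to 0.116), and with the GC and length trend removed (adjusted p = 0.13). BST2 had 79.02, 69.5, 57.2 and 66.3 CPM at 8 h, against 119, 80.95, 92.4 and 107 CPM in vehicle tumors. It fell by 0.56 on the log2 scale at 8 h (adjusted p = 0.0241). The BST2 call was lost without 8 h tumor 3 or 4 or vehicle tumor 1 or 4 (adjusted p up to 0.101). The 3 IFITM genes lie together on chromosome 11, between 307631 and 327537 in GENCODE release 29 on GRCh38. Their coding sequences are very alike and the annotated IFITM1 and IFITM2 spans overlap, so reads could be split among them by the counting and their separate values are less certain.

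**Figure D2:**
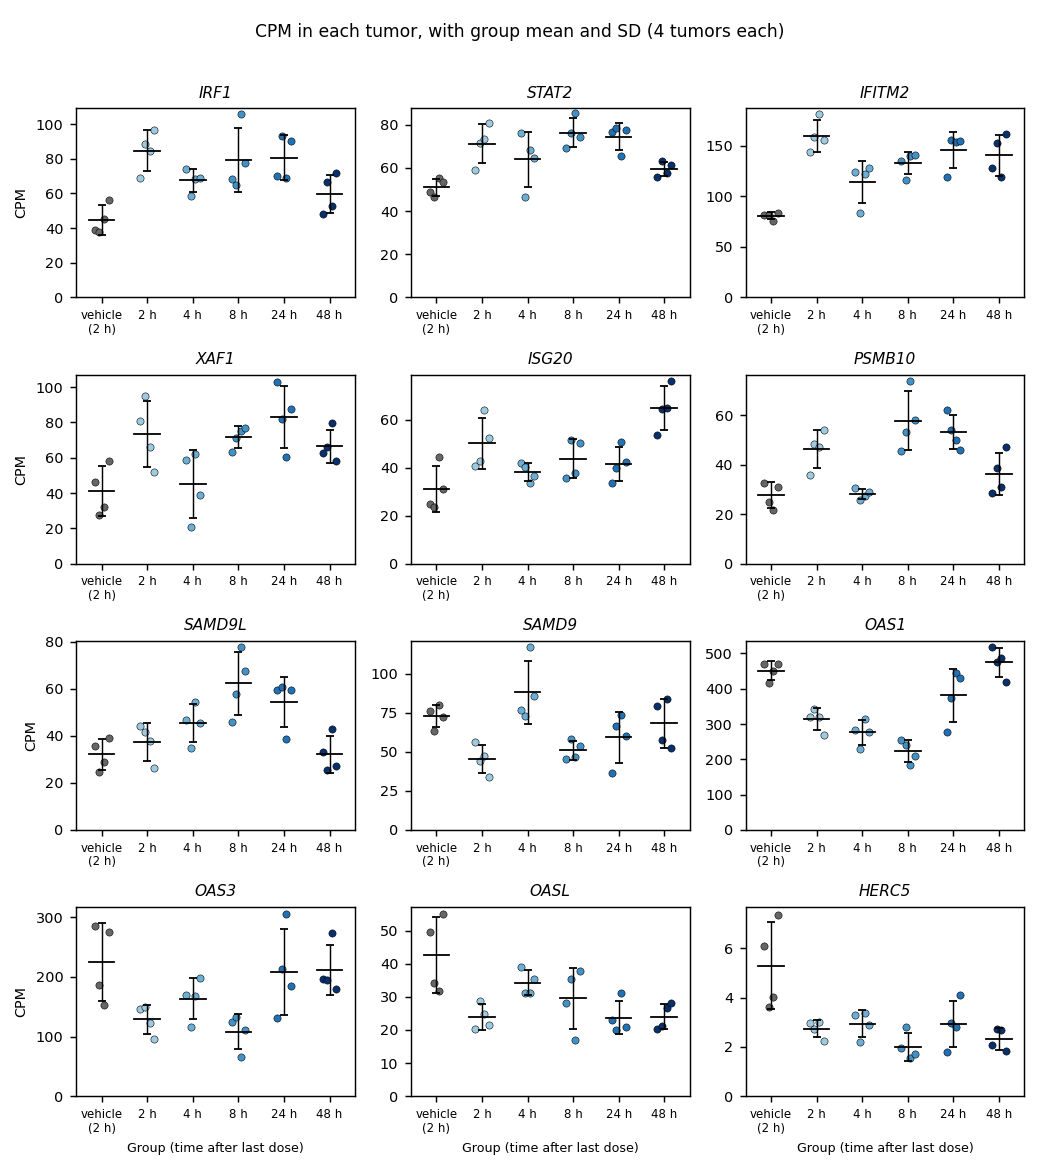
CPM of 12 genes in each of the 24 tumors, by group from vehicle (taken at 2 h) to 48 h after the last IK-595 dose. Points are tumors, the long bar is the group mean and the whisker its SD (n = 4), on axes that start at 0. IFITM2 lies above the vehicle range in 19 of 20 IK-595 tumors, while OAS1 lies below it in all tumors at 2, 4 and 8 h.

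The immunoproteasome genes PSMB8, PSMB9 and PSMB10 encode catalytic subunits that replace PSMB5, PSMB6 and PSMB7 in the proteasome and shape the peptides shown on MHC class I. All 3 rose at 8 and 24 h, when 20.6% and 13.7% of all genes did, and PSMB8 and PSMB10 rose at 2 h, while none was called at 4 or 48 h. PSMB5, PSMB6 and PSMB7 were called at no time. At 24 h they were at -0.374 ± 0.211, -0.097 ± 0.299 and -0.485 ± 0.23 (adjusted p = 0.196, 0.839 and 0.119). At 8 h they were at -0.22 ± 0.211, 0.309 ± 0.299 and -0.153 ± 0.229. The ratios given below move with both of their genes.

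PSMB10 had 32.8, 24.9, 21.6 and 31.2 CPM in the vehicle tumors, 35.9, 48.5, 47.3 and 53.98 CPM at 2 h and 30.5, 25.6, 27.5 and 28.97 CPM at 4 h. PSMB10 levels were 45.7, 53.3, 73.8 and 58.2 CPM at 8 h, 62.2, 54.01, 49.98 and 46.1 CPM at 24 h and 28.5, 38.6, 31.2 and 47.3 CPM at 48 h. PSMB10 did not overlap between groups at 2, 8 and 24 h. At 4 h all 4 tumors lay within the vehicle range. The PSMB10 log2 fold change was 0.75 ± 0.17 (adjusted p = 0.00323) at 2 h, 1.06 ± 0.17 (adjusted p = 4.49e-05) at 8 h and 0.94 ± 0.17 (adjusted p = 0.000451) at 24 h, and each of these calls held with any 1 tumor left out. At 4 h it was 0.03 ± 0.17 (adjusted p = 0.936).

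PSMB8 had 46.4, 34.2, 39.02 and 52.3 CPM in the vehicle tumors, 50.6, 59.9, 63.4 and 58.3 CPM at 2 h and 54.9, 32.1, 50.5 and 51.99 CPM at 4 h. PSMB8 levels were 58.6, 57.1, 70.3 and 59.7 CPM at 8 h, 56.1, 68.4, 70.5 and 63.6 CPM at 24 h and 46.02, 54.9, 54.4 and 65.5 CPM at 48 h. The PSMB8 groups did not overlap at 8 and 24 h. It rose by 0.43 ± 0.15 (adjusted p = 0.0406) at 2 h, 0.52 ± 0.15 (adjusted p = 0.00957) at 8 h and 0.59 ± 0.15 (adjusted p = 0.00711) at 24 h. For PSMB8, leaving out 1 tumor ended only the 2 h call (2 h tumor 2, 3 or 4 or vehicle tumor 1, 2 or 3, adjusted p up to 0.145). On log2(TPM + 1) the 3 calls were lost, at adjusted p of 0.247, 0.188 and 0.0502.

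PSMB9 had 27.7, 19.9, 22.4 and 31.8 CPM in the vehicle tumors, 26.9, 34.7, 32.1 and 35.5 CPM at 2 h and 28.4, 19.1, 32.1 and 26.3 CPM at 4 h. PSMB9 levels were 35.00, 30.5, 35.7 and 35.7 CPM at 8 h, 27.4, 39.8, 33.8 and 36.9 CPM at 24 h and 23.7, 27.2, 27.4 and 26.99 CPM at 48 h. At 8 and at 24 h 3 of the 4 tumors lay above the highest vehicle tumor. PSMB9 rose by 0.43 ± 0.16 (adjusted p = 0.0301) at 8 h and 0.44 ± 0.16 (adjusted p = 0.0392) at 24 h. For PSMB9, leaving out 1 tumor ended the 8 h call (8 h tumor 1, 3 or 4 or vehicle tumor 2 or 3, adjusted p up to 0.116) and the 24 h call (24 h tumor 2 or 4 or vehicle tumor 2 or 3, adjusted p up to 0.144). On log2(TPM + 1) both were lost (adjusted p = 0.592 and 0.293). The annotated spans of PSMB8 and PSMB9 overlap on opposite strands of chromosome 6. The span of TAP1, counted below among the outputs typical of interferon gamma, lies inside that of PSMB9 on the other strand. Use of strand is not given in the sources used here, so reads of one of these genes may count toward another.

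A ratio of 2 genes within a tumor does not depend on the scaling between tumors. The log2 ratio of PSMB10 over PSMB7, the subunit it replaces, was -0.32, -0.34, -1.11 and -0.998 in 24 h tumors, against -1.92, -2.49, -2.21 and -1.93 in vehicle tumors. At 8 h it was -1.11, -1.45, 0.22 and -1.13. Neither of these groups overlapped the vehicle tumors. The difference was 1.27 ± 0.40 (standard error) at 8 h and 1.45 ± 0.25 at 24 h, with an exact two-sided permutation p = 0.0286 for each, the smallest that 4 against 4 tumors can give. At 48 h it was 0.69 ± 0.27 (exact permutation p = 0.0286). At 2 h it was 1.02 ± 0.35 with overlap (exact permutation p = 0.0857), and at 4 h -0.03 ± 0.26 (exact permutation p = 0.857). PSMB8 over PSMB5 differed by 1.003 ± 0.26 at 24 h (exact permutation p = 0.0286), and PSMB9 over PSMB6 by 0.58 ± 0.35 (exact permutation p = 0.2). At 8 h these 2 pairs differed by 0.792 ± 0.375 (exact permutation p = 0.0571) and 0.221 ± 0.395 (exact permutation p = 0.629). The pairs were chosen after the single genes had been seen. Adjusted over the 20 tests on 4 pairs, the smallest exact p becomes 0.0953, so none passes. From TPM in place of counts, PSMB10 over PSMB7 at 48 h was 0.67 with an exact permutation p = 0.114. An exact permutation p of 0.0286 cannot be reached once a tumor is left out.

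The OAS enzymes sense double-stranded RNA and make short oligoadenylates that switch on RNase L, and OASL is a relative that lacks this activity. All 4 fell at 8 h, when 23.7% of all genes did. OAS1 fell at 2, 4 and 8 h, OASL at 2, 8, 24 and 48 h, OAS3 at 2 and 8 h, and OAS2 at 8 h. ISG20, an RNase listed beside them, rose at 2, 8 and 48 h.

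OAS1 had 469.9, 415, 449.8 and 470.1 CPM in the vehicle tumors, 321, 343, 319 and 269.5 CPM at 2 h and 283, 229.9, 315 and 278 CPM at 4 h. OAS1 levels were 256, 239.7, 185 and 210.1 CPM at 8 h, 277, 374, 444 and 429 CPM at 24 h and 518, 477, 486 and 419 CPM at 48 h. OAS1 was rank 4 of the 42 genes in vehicle tumors by TPM. All 12 tumors from 2 to 8 h lay below the lowest vehicle tumor, and at 24 h 2 of 4 were back inside the vehicle range. The OAS1 log2 fold change was -0.53 ± 0.14 (adjusted p = 0.00825) at 2 h, -0.71 ± 0.14 (adjusted p = 0.00107) at 4 h and -1.02 ± 0.14 (adjusted p = 6.79e-06) at 8 h, and each call held with any 1 tumor left out. At 24 h it was -0.24 ± 0.14 (adjusted p = 0.201) and at 48 h 0.07 ± 0.14 (adjusted p = 0.818). Between IK-595 groups OAS1 was 0.77 ± 0.14 at 24 h against 8 h (adjusted p = 0.00109), with no overlap and no call lost on leaving out a tumor. The 4 h call was lost on log2(TPM + 1) (adjusted p = 0.0548) and without 5 tumors, namely 4 h tumor 2, which had the highest summed fibroblast markers, and the 4 tumors with the highest summed muscle, fat and red cell markers (adjusted p = 0.0536).

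OAS3 had 286, 186, 154 and 276 CPM in the vehicle tumors, 146, 149.9, 122 and 96.3 CPM at 2 h and 170.1, 117, 168 and 199 CPM at 4 h. OAS3 levels were 124, 133, 65.6 and 111 CPM at 8 h, 132, 212, 304 and 185 CPM at 24 h and 196, 195, 274 and 180.3 CPM at 48 h. OAS3 did not overlap between groups at 2 and 8 h. It fell, at -0.81 ± 0.25 (adjusted p = 0.0222) at 2 h and -1.06 ± 0.26 (adjusted p = 0.002) at 8 h. For OAS3, leaving out 1 tumor ended only the 2 h call (2 h tumor 3 or 4 or vehicle tumor 1 or 4, adjusted p up to 0.087). At 24 h and 48 h OAS3 was not called, at -0.11 ± 0.25 and -0.09 ± 0.25 (adjusted p = 0.775 and 0.881).

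OASL had 49.6, 34.04, 31.8 and 55.1 CPM in the vehicle tumors, 20.4, 28.8, 24.9 and 21.4 CPM at 2 h and 39.1, 31.2, 31.2 and 35.5 CPM at 4 h. OASL levels were 28.1, 35.4, 17.1 and 37.7 CPM at 8 h, 22.9, 20.1, 31.02 and 21.04 CPM at 24 h and 20.3, 21.2, 26.5 and 28.1 CPM at 48 h. OASL did not overlap between groups at 2, 24 and 48 h, while 2 of 4 tumors at 8 h lay inside the vehicle range. The OASL log2 fold change was -0.83 ± 0.21 (adjusted p = 0.00648) at 2 h, -0.53 ± 0.21 (adjusted p = 0.0476) at 8 h, -0.84 ± 0.21 (adjusted p = 0.00561) at 24 h and -0.83 ± 0.21 (adjusted p = 0.0144) at 48 h. For OASL, leaving out 1 tumor ended the 8 h call (8 h tumor 1 or 3 or vehicle tumor 1 or 4, adjusted p up to 0.18) and the 48 h call (48 h tumor 2 or vehicle tumor 1 or 4, adjusted p up to 0.0634). RLE scaling (adjusted p = 0.0583) and DESeq2 (adjusted p = 0.0501) also ended the 8 h call.

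OAS2 averaged 21.4 ± 7.39 CPM at 8 h, against 44.6 ± 22.5 CPM in vehicle tumors, and fell at -1.06 ± 0.39 (adjusted p = 0.031), a call lost without 8 h tumor 1, 2 or 3 or vehicle tumor 1 or 4 (adjusted p up to 0.12). With the GC and length trend removed the adjusted p was 0.0696. OAS1, OAS3 and OAS2 stand side by side on chromosome 12 between 112906777 and 113011723, and OASL lies apart on the same chromosome at 121019111 to 121039242, in GENCODE release 29.

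ISG20 had 25.00, 23.5, 44.5 and 31.2 CPM in the vehicle tumors, 40.97, 43.1, 64.3 and 52.7 CPM at 2 h and 41.96, 40.3, 33.8 and 36.6 CPM at 4 h. ISG20 levels were 35.9, 51.7, 37.8 and 50.2 CPM at 8 h, 33.5, 39.8, 50.6 and 42.4 CPM at 24 h and 53.8, 64.6, 64.8 and 76.2 CPM at 48 h. At 48 h all 4 ISG20 values lay above the highest vehicle tumor, and at 2 and 8 h the groups overlapped. The ISG20 log2 fold change was 0.69 ± 0.19 (adjusted p = 0.00958) at 2 h, 0.50 ± 0.19 (adjusted p = 0.0359) at 8 h and 1.06 ± 0.19 (adjusted p = 0.000873) at 48 h, the time at which most other genes of the list were no longer called. The ISG20 call at 8 h was lost without 8 h tumor 2 or 4 or vehicle tumor 1, 2 or 4 (adjusted p up to 0.128), and with the GC and length trend removed (adjusted p = 0.0765).

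ISG15 is a ubiquitin-like protein that HERC5 attaches to newly made proteins and USP18 removes. HERC5 fell at all 5 times, and ISG15, USP18 and HERC6 were called at none. HERC5 had 6.11, 3.63, 4.03 and 7.36 CPM in the vehicle tumors, 2.98, 2.71, 2.997 and 2.25 CPM at 2 h and 3.29, 2.201, 3.38 and 2.897 CPM at 4 h. HERC5 levels were 1.96, 2.79, 1.53 and 1.73 CPM at 8 h, 1.81, 2.98, 2.81 and 4.11 CPM at 24 h and 2.09, 2.71, 2.67 and 1.82 CPM at 48 h. HERC5 was low throughout, and at 2, 4, 8 and 48 h all IK-595 tumors lay below the lowest vehicle tumor. The HERC5 log2 fold change was -0.95 ± 0.27 (adjusted p = 0.0137) at 2 h, -0.84 ± 0.27 (adjusted p = 0.0397) at 4 h, -1.40 ± 0.28 (adjusted p = 0.000375) at 8 h, -0.84 ± 0.27 (adjusted p = 0.0244) at 24 h and -1.18 ± 0.28 (adjusted p = 0.00703) at 48 h. At 8 h the level was 0.38 times that of vehicle. For HERC5, leaving out 1 tumor ended the 2 h call (vehicle tumor 4, adjusted p up to 0.0598), the 4 h call (4 h tumor 1, 2, 3 or 4 or vehicle tumor 1 or 4, adjusted p up to 0.155) and the 24 h call (24 h tumor 1 or vehicle tumor 1 or 4, adjusted p up to 0.101). With the GC and length trend removed the 2 h and 24 h calls were lost (adjusted p = 0.0552 and 0.075). ISG15 averaged 45.6 ± 15.4 CPM at 8 h, against 43.5 ± 12.1 CPM in vehicle tumors, and its values ran from -0.40 ± 0.31 at 4 h to 0.07 ± 0.31 at 8 h.

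SAMD9 and SAMD9L are neighboring, related genes whose proteins restrict poxviruses and slow cell growth. SAMD9 fell at 2 and 8 h and SAMD9L rose at 8 and 24 h, so that 8 h was the time at which both were called, in opposite directions. At 4 h both had values above 0 that were not called, 0.27 ± 0.20 for SAMD9 and 0.50 ± 0.21 for SAMD9L. They lie on the minus strand of chromosome 7, SAMD9 at 93099513 to 93118023 and SAMD9L at 93130055 to 93148369.

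SAMD9 had 76.3, 63.6, 79.7 and 72.4 CPM in the vehicle tumors, 56.2, 44.03, 47.1 and 34.1 CPM at 2 h and 76.7, 72.6, 117 and 85.7 CPM at 4 h. SAMD9 levels were 45.5, 57.99, 46.7 and 53.6 CPM at 8 h, 36.5, 66.8, 73.7 and 59.9 CPM at 24 h and 79.1, 57.7, 83.5 and 52.2 CPM at 48 h. SAMD9 lay below the lowest vehicle tumor in all tumors at 2 and 8 h. SAMD9L had 35.6, 24.7, 28.8 and 39.2 CPM in the vehicle tumors, 44.2, 41.5, 37.6 and 26.1 CPM at 2 h and 46.5, 34.7, 54.4 and 45.5 CPM at 4 h. SAMD9L levels were 46.04, 57.9, 77.6 and 67.5 CPM at 8 h, 59.3, 60.6, 38.5 and 59.4 CPM at 24 h and 33.3, 25.4, 42.7 and 27.2 CPM at 48 h. SAMD9L lay above the highest vehicle tumor in all tumors at 8 h and in 3 of 4 at 24 h. SAMD9 was -0.69 ± 0.20 (adjusted p = 0.0139) at 2 h and -0.52 ± 0.20 (adjusted p = 0.0373) at 8 h. SAMD9L was 0.96 ± 0.21 (adjusted p = 0.000811) at 8 h and 0.76 ± 0.21 (adjusted p = 0.00904) at 24 h, and both of its calls held with any 1 tumor left out. For SAMD9, leaving out 1 tumor ended the 2 h call (2 h tumor 4, adjusted p up to 0.0595) and the 8 h call (8 h tumor 1, 3 or 4 or vehicle tumor 1, 3 or 4, adjusted p up to 0.0922). The SAMD9 call at 8 h was also lost with the GC and length trend removed (adjusted p = 0.107), and on log2(TPM + 1) the SAMD9L calls were lost (adjusted p = 0.0584 and 0.145).

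Within each tumor the log2 ratio of SAMD9L over SAMD9 was -1.10, -1.36, -1.47 and -0.88 in vehicle tumors, -0.35, -0.09, -0.33 and -0.39 at 2 h and -0.72, -1.06, -1.10 and -0.91 at 4 h. It was 0.02, -0.002, 0.73 and 0.33 at 8 h, 0.70, -0.14, -0.94 and -0.01 at 24 h and -1.25, -1.19, -0.97 and -0.94 at 48 h. Tumors at 2 and 8 h did not overlap vehicle, and those at 4, 24 and 48 h did. The difference from vehicle was 0.92 ± 0.15 at 2 h and 1.48 ± 0.22 at 8 h (exact two-sided permutation p = 0.0286 each, adjusted 0.0953 over the 20 tests), a 2.78-fold shift at 8 h. At 24 h it was 1.11 ± 0.36 (exact permutation p = 0.0571), at 4 h 0.25 ± 0.16 (exact permutation p = 0.2) and at 48 h 0.12 ± 0.15 (exact permutation p = 0.457). This pair too was chosen with its values in view.

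**Figure D3:**
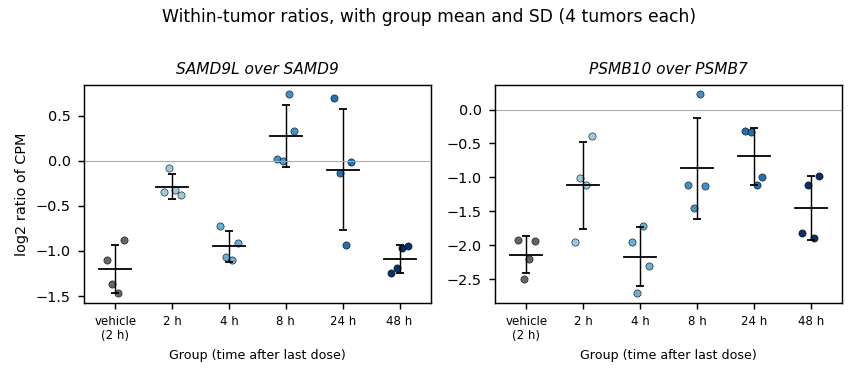
Log2 ratio of counts of 2 genes within each tumor, SAMD9L over SAMD9 (left) and PSMB10 over PSMB7 (right), by group from vehicle to 48 h after the last IK-595 dose. Points are tumors, the long bar is the group mean and the whisker its SD (n = 4). Both ratios are higher than vehicle at 8 h without overlap, and both overlap the vehicle range at 4 h.

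XAF1, which counters the apoptosis inhibitor XIAP, rose at 2, 8 and 24 h, and EPSTI1 rose at 8 h. XAF1 had 46.2, 27.3, 32.4 and 58.3 CPM in the vehicle tumors, 80.8, 94.7, 65.9 and 51.6 CPM at 2 h and 58.7, 20.7, 61.9 and 38.9 CPM at 4 h. XAF1 levels were 63.1, 71.1, 74.9 and 77.05 CPM at 8 h, 103, 81.7, 60.3 and 87.6 CPM at 24 h and 62.6, 66.2, 79.6 and 57.9 CPM at 48 h. XAF1 did not overlap between groups at 8 and 24 h. The XAF1 log2 fold change was 0.83 ± 0.27 (adjusted p = 0.0261) at 2 h, 0.80 ± 0.27 (adjusted p = 0.02) at 8 h and 1.02 ± 0.27 (adjusted p = 0.0081) at 24 h. For XAF1, leaving out 1 tumor ended the 2 h call (2 h tumor 2 or vehicle tumor 2 or 3, adjusted p up to 0.0935) and the 8 h call (vehicle tumor 2 or 3, adjusted p up to 0.0746). Without the low-count filter the 2 h and 8 h calls were lost (adjusted p = 0.117 and 0.0872). EPSTI1 averaged 48.8 ± 6.77 CPM at 8 h, against 32.3 ± 9.68 CPM in vehicle tumors, and rose by 0.60 ± 0.20 (adjusted p = 0.0207), a call lost without 8 h tumor 4 or vehicle tumor 2 or 3 (adjusted p up to 0.0829).

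Among the sensors of viral RNA in the cytoplasm, the helicase DDX60 fell at 8 h and IFIH1 (MDA5) was called at no time. DDX60 averaged 61.2 ± 4.59 CPM at 8 h, against 108 ± 16.4 CPM in vehicle tumors, without overlap, and fell at -0.82 ± 0.20 (adjusted p = 0.00169). None of the 3 ADP-ribosylation genes (PARP9, PARP14 and DTX3L), the 4 IFIT genes, which bind foreign RNA ends and block its translation, or the 2 MX genes, which encode antiviral GTPases, was called at any single time. IFIT2 came nearest, with -0.73 ± 0.24 (adjusted p = 0.0541) at 48 h and an F test over the 5 times at an adjusted p of 0.00287. The 2 MX genes stood at 0.477 and 0.849 at 24 h, 0.48 and 0.757 at 48 h, and -0.111 and 0.369 at 4 h. Both spread widely between vehicle tumors, as given below, so the missing calls do not show that they were unchanged. PARP9 and DTX3L share a start region on chromosome 3, where their annotated spans overlap.

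The most expressed genes that were never called were IFI27, LGALS3BP and IFI6. IFI27, a small mitochondrial and nuclear membrane protein gene and the highest of all 42 in vehicle tumors at 607 ± 222 TPM (SD, n = 4), is among the most strongly interferon-induced genes known. IFI27 had 167, 89.9, 110.5 and 194 CPM in the vehicle tumors, 147, 199, 162 and 102 CPM at 2 h and 180.0, 69.1, 149.5 and 134 CPM at 4 h. IFI27 levels were 159.6, 194, 109 and 225 CPM at 8 h, 155, 138, 176 and 173 CPM at 24 h and 118, 139, 171 and 198 CPM at 48 h. Each IK-595 group overlapped the vehicle tumors, and the log2 fold change ran from -0.07 ± 0.28 at 4 h to 0.29 ± 0.28 at 8 h. LGALS3BP had 291, 222, 184 and 282 CPM in the vehicle tumors, 204, 274, 286 and 232 CPM at 2 h and 264, 171, 230.1 and 257 CPM at 4 h. LGALS3BP levels were 274, 277, 210.0 and 284 CPM at 8 h, 212, 257, 280.4 and 259 CPM at 24 h and 218, 231, 292 and 309 CPM at 48 h. LGALS3BP, a secreted galectin-binding glycoprotein, also overlapped vehicle at every time, at -0.09 ± 0.17 at 4 h to 0.10 ± 0.17 at 48 h.

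IFI6, a mitochondrial protein gene that delays apoptosis, spread widely between tumors of 1 group. IFI6 had 97.5, 35.1, 36.7 and 105 CPM in the vehicle tumors, 46.2, 59.2, 35.2 and 18.97 CPM at 2 h and 71.98, 23.1, 66.4 and 81.5 CPM at 4 h. IFI6 levels were 52.2, 54.9, 17.97 and 69.2 CPM at 8 h, 37.2, 66.9, 103 and 80.5 CPM at 24 h and 38.7, 42.3, 80.99 and 70.1 CPM at 48 h. Vehicle tumors 1 and 4 were high and vehicle tumors 2 and 3 low, with the highest 2.98 times the lowest. The log2 fold change ran from -0.78 ± 0.48 at 2 h to 0.07 ± 0.47 at 24 h, and none of these was called.

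Vehicle tumors 1 and 4 were the 2 highest of the 4 vehicle tumors in 33 of the 42 genes (78.6%), while they were so in 17.5% of all genes tested. The pattern was noticed in the data and then counted. Between vehicle tumors the highest was 21.2 times the lowest for IFI44L, 7.05 times for MX2, 4.02 times for MX1 and 4.0 times for HERC6. In OAS1, IFITM2 and STAT2 that ratio was 1.13, 1.11 and 1.19. The SD within groups, pooled over the 6 groups on the log2 scale, was above the 90th percentile of genes of like level (mean log2 CPM within 0.5) for 14 of the 42. Among genes of like level the 42 ran from percentile 19.6 (HERC5) to 99.2 (MX1). For the 42 as a whole the median SD was 0.329, and for all tested genes 0.333. These 2 medians are not matched for level, so they do not tell whether the 42 spread more than like genes. MX1 had 45.5, 50.5, 90.99 and 83.8 CPM at 48 h, against 61.3, 22.7, 21.9 and 88.2 CPM in vehicle tumors. IFI44L had 5.73, 5.85, 7.06 and 7.56 CPM at 48 h, against 6.79, 0.968, 2.09 and 20.5 CPM in vehicle tumors. For both genes the 48 h tumors overlapped the vehicle tumors. Summed fibroblast markers were 429, 737, 508 and 402 TPM in vehicle tumors 1 to 4, and summed myeloid markers 717, 503, 694 and 781 TPM, and the part of either in this split was not tested.

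**Figure D4:**
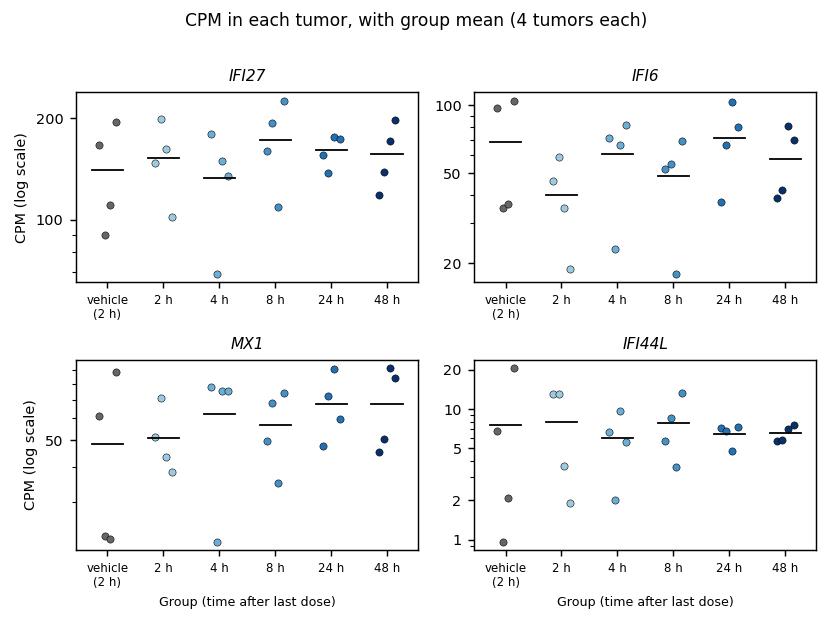
CPM (log axis) of 4 genes that were called at no time, in each of the 24 tumors, by group from vehicle to 48 h after the last IK-595 dose. Points are tumors and the bar is the arithmetic group mean (n = 4). Vehicle tumors 1 and 4 are the 2 highest of their group, the highest 21.2 times the lowest for IFI44L, and every IK-595 group overlaps the vehicle tumors.

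Other tumors also ran low or high across the list. In 4 h tumor 2, 38 of 42 genes (90.5%) had the lowest value of the 4 h group, while 37.5% of all tested genes did. In 24 h tumor 1, 30 of 42 (71.4%) were the lowest of the 24 h group, and 35.1% of all genes. The 4 h tumor 2 had 9760 TPM of summed fibroblast markers, and the other 23 tumors 351 to 1510 TPM. Muscle, fat and red cell markers summed to 1280 TPM in 2 h tumor 1, 719 TPM in 4 h tumor 4, 797 TPM in 8 h tumor 2, 282 TPM in 8 h tumor 4 and 942 TPM in 24 h tumor 4, and to at most 89.6 TPM elsewhere. Lymphocyte markers summed to at most 3.82 TPM, and ADGRE1, TYROBP, C1QA and C1QB had at most 3 counts in every tumor. Those 4 are among the 11 myeloid markers, so the myeloid sums rest on the 7 that were tested. The sums were 335 to 433 TPM at 2 h and 218 to 314 TPM at 8 h, both below the 503 to 781 TPM of vehicle tumors. Of the 7, 1 rose and 2 fell at 8 h (CD68, LYZ and ITGAM were the 3 called), and none was called at the other times. Whether these 7 were read from host myeloid cells or from tumor cells was not tested. Of 8 fibroblast markers COL1A1 and COL1A2 rose at 4 h, and none was called at the other times. The part of these markers in the changes was not tested. Leaving out 5 of these tumors, 2 h tumor 1, 4 h tumors 2 and 4, 8 h tumor 2 and 24 h tumor 4, but not 8 h tumor 4, gave 11, 3, 11, 8 and 2 rises at 2, 4, 8, 24 and 48 h, and 5, 0, 5, 2 and 2 falls. The shares of all genes called without these tumors are not given here.

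Between IK-595 groups few of these genes differed. At 8 h against 2 h 1 was higher and 1 lower, 4.76% of 42 against 4.46% of all genes (1.05% higher and 3.41% lower). SAMD9L averaged 62.3 ± 13.5 CPM at 8 h, against 37.4 ± 7.96 CPM at 2 h (0.74 ± 0.21, adjusted p = 0.0443), and OAS1 averaged 223 ± 31.3 CPM at 8 h, against 313 ± 31.1 CPM at 2 h (-0.49 ± 0.14, adjusted p = 0.0461). The SAMD9L call was lost without 2 h tumor 2, 3 or 4 or 8 h tumor 2, 3 or 4 (adjusted p up to 0.153), and the OAS1 call without 2 h tumor 1, 2 or 3 or 8 h tumor 2, 3 or 4 (adjusted p up to 0.133). At 24 h against 8 h 2 were higher and none lower (4.76%, against 6.89%, 5.3% higher and 1.58% lower), OAS1 as given above and OAS3 at 0.94 ± 0.26 (adjusted p = 0.0252). The OAS3 call was lost without 24 h tumor 2 or 3 or 8 h tumor 3 or 4 (adjusted p up to 0.144). At 48 h against 24 h none was higher and SAMD9L was lower (2.38%, against 4.07%, 2.47% higher and 1.6% lower), at -0.76 ± 0.21 (adjusted p = 0.0394), a call lost without 24 h tumor 1, 2 or 4 or 48 h tumor 1, 2 or 4 (adjusted p up to 0.117).

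The median GC content of the transcripts was 56.1% in the 13 genes that rose, 48.5% in the 8 that fell and 46.6% in the 21 never called. Over all genes the same direction was present: genes under 43% GC had a median log2 fold change of -0.20 at 8 h and those over 58% GC 0.38. These medians were -0.15 and 0.31 at 2 h, and nearly equal at 4 h (0.01 and 0.01). They were -0.14 and 0.27 at 24 h, and -0.14 and 0.17 at 48 h. With a GC and length trend of each tumor removed, 42 of the 49 calls of the genes named here remained. SAMD9L, at 39.5% GC, rose against the trend, and its log2 fold change at 8 h was 1.21 with the trend removed, while OAS3, at 56.0% GC, fell against it, at -1.13.

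**Figure D5:**
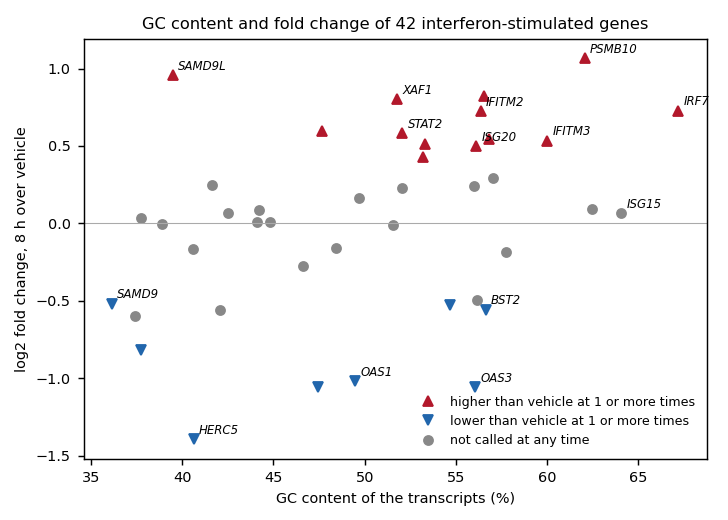
Log2 fold change at 8 h over vehicle (vertical axis) against the GC content of the transcripts in percent (horizontal axis) for the 42 genes, 1 symbol a gene. Triangles up rose and triangles down fell at 1 or more of the 5 times, and circles were never called. Genes that rose sit mostly above 50% GC, with SAMD9L and EPSTI1 below it.

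The rest of the interferon pathway was read from lists of general knowledge. Counts from these lists can be set beside the shares of all genes tested at 2, 4, 8, 24 and 48 h, of which 13.4, 6.74, 20.6, 13.7 and 5.52% rose and 13.6, 8.39, 23.7, 13.8 and 4.46% fell. Of 10 interferon genes, IFNB1, IFNA2, IFNA5, IFNK and IFNG had 0 counts in every tumor, which allows 3 counts per tumor. IFNA1 had at most 2 counts, IFNL1 at most 4, IFNL2 at most 7 and IFNL3 at most 3. IFNE, an epithelial interferon, was the 1 that passed the filter, with 7 to 41 counts per tumor, and was called at no time (-0.83 ± 0.35 at 4 h, adjusted p = 0.117).

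Of 10 genes for receptors, kinases and STAT3, 0, 0, 0, 1 and 1 rose at 2, 4, 8, 24 and 48 h, and 0, 1, 3, 1 and 0 fell. IFNGR2, a chain of the interferon gamma receptor, fell at 4, 8 and 24 h, at -0.78 ± 0.13 (adjusted p = 0.000128) at 4 h, and IFNLR1, a chain of the type III interferon receptor, rose at 24 and 48 h, at 0.84 ± 0.16 (adjusted p = 0.00122) at 48 h. The IFNLR1 call at 24 h did not hold with every tumor left out in turn, and that at 48 h did. IFNGR1 fell at 8 h, at -0.41 ± 0.16 (adjusted p = 0.0431), a call lost without 8 h tumor 2, 3 or 4 or vehicle tumor 1, 2 or 3 (adjusted p up to 0.116). JAK1 was called at no time.

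Of 8 genes that tune the pathway (SOCS1, SOCS3, PIAS1, PTPN2, PTPN6, PTPN11, UBE2L6 and TRIM21), most of them brakes, 3, 2, 3, 2 and 1 rose at 2, 4, 8, 24 and 48 h, and 1, 0, 1, 1 and 0 fell. PTPN2, a phosphatase that acts on JAK1, had 49.5, 55.95, 82.6 and 58.4 CPM at 8 h, against 34.2, 36.4, 40.6 and 40.7 CPM in vehicle tumors, and rose at 2, 4, 8 and 24 h (0.70 ± 0.14, adjusted p = 0.000358 at 8 h). For PTPN2, leaving out 1 tumor ended only the 4 h call (4 h tumor 1 or vehicle tumor 1 or 2, adjusted p up to 0.066). PTPN6 (SHP-1) rose at the same times, with 1.15 ± 0.16 (adjusted p = 8.72e-06) at 8 h. For PTPN6, leaving out 1 tumor ended the 4 h call (4 h tumor 2 or vehicle tumor 2 or 3, adjusted p up to 0.0697) and the 24 h call (24 h tumor 1 or vehicle tumor 3, adjusted p up to 0.0604). PTPN11 (SHP-2), which also carries growth factor signals to RAS, fell at 2, 8 and 24 h, with -1.27 ± 0.19 (adjusted p = 2e-05) at 8 h. PIAS1 rose at 2, 8 and 48 h (0.74 ± 0.20, adjusted p = 0.00408 at 8 h). For PIAS1, leaving out 1 tumor ended the 2 h call (2 h tumor 2, 3 or 4 or vehicle tumor 1, 2 or 4, adjusted p up to 0.0928) and the 48 h call (48 h tumor 1, 2 or 4 or vehicle tumor 1, 2 or 4, adjusted p up to 0.105). TRIM21, a cytosolic antibody receptor and ubiquitin ligase, was called at none of the 5 times.

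Of 12 genes of nucleic acid sensing, 2, 1, 4, 5 and 1 rose at 2, 4, 8, 24 and 48 h, and 2, 1, 3, 1 and 0 fell. The share called at 8 h was 58.3%, against 44.3% of all genes. The DNA sensor CGAS (MB21D1 in the annotation) fell at 2, 4, 8 and 24 h, and had 9.73, 7.54, 8.64 and 5.096 CPM at 8 h, against 20.8, 21.6, 16.7 and 15.2 CPM in vehicle tumors, at -1.26 ± 0.18 (adjusted p = 1.29e-05). STING1 (TMEM173), which acts directly after it, rose at 24 h, with 132, 199, 153 and 152 CPM at 24 h, against 59.7, 57.5, 80.5 and 79.05 CPM in vehicle tumors, at 1.20 ± 0.27 (adjusted p = 0.00278). IRF3, the factor at the end of that pathway, rose at 2, 8 and 24 h, with 0.86 ± 0.20 (adjusted p = 0.00125) at 8 h. For IRF3, leaving out 1 tumor ended the 2 h call (2 h tumor 3 or 4 or vehicle tumor 1 or 2, adjusted p up to 0.0579) and the 24 h call (24 h tumor 1, adjusted p up to 0.0604). The kinase IKBKE rose at 4, 8 and 24 h, with 0.47 ± 0.13 (adjusted p = 0.00663) at 8 h, and its 4 h call was lost without 4 h tumor 1 or 4 or vehicle tumor 2, 3 or 4 (adjusted p up to 0.131). With the GC and length trend removed the IKBKE calls at 8 and 24 h were lost (adjusted p = 0.0656 and 0.075), as was the IRF3 call at 2 h (adjusted p = 0.0763). TRIM25, a ubiquitin ligase that acts on RIG-I, was called at no time.

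Of 12 outputs typical of interferon gamma, 8 passed the filter, and CXCL9, CXCL10, CXCL11 and IDO1 did not. None was called at 2 h, 1 rose at 4 h, 2 rose at 8 h, 1 rose at 24 h and 1 rose at 48 h, and none fell. NLRC5, the coactivator of MHC class I genes, rose at 4, 8 and 24 h. It had 28.7, 42.6, 33.7 and 43.02 CPM at 8 h, against 13.8, 12.98, 8.91 and 15.9 CPM in vehicle tumors, without overlap (1.52 ± 0.24, adjusted p = 3.47e-05). GBP3 rose at 48 h (0.78 ± 0.22, adjusted p = 0.0253) and lost that call without 48 h tumor 1 or 2 or vehicle tumor 1, 2 or 4 (adjusted p up to 0.0827). GBP2 rose at 8 h (0.86 ± 0.29, adjusted p = 0.022) and lost that call without vehicle tumor 1 or 2 (adjusted p up to 0.0643). B2M, the light chain of MHC class I, was called at no time, though its values were not flat. It had 1479, 1475, 1256 and 1767 CPM at 48 h, against 830, 732, 1177 and 917 CPM in vehicle tumors, without overlap. At 24 h it had 377, 1576, 1549 and 1415 CPM.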

How the data were processed

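The authors sequenced polyA RNA of 24 tumors and deposited, per the labels, estimated counts and TPM for 60230 genes. The submitters' processing notes name bcl2fastq 2.17, FastQC 0.12.1, Salmon 0.14.1 and the build GRCh38.p13. Strand use, the handling of mouse reads and any filter by the submitters are not stated. Estimated counts from Salmon need not be whole (59.6% were within 0.0015 of a whole number), so they were rounded. TPM, which the authors deposited beside the counts, divides by the length of the assigned transcripts and was used for levels between genes and as an alternative scale.

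Counts were scaled by TMM, filtered by filterByExpr (18242 genes left) and tested in 1 fit of all 6 groups with the quasi-likelihood test of edgeR 4.0.16 (robust) in R 4.3.3, with Benjamini-Hochberg adjustment over all tested genes and a threshold of 0.05. The median standard error of a log2 fold change was 0.23. CPM for display used TMM-scaled library sizes. Ratios of 2 genes within a tumor were compared by exact two-sided permutation tests. The script was tested on simulated data. Alternatives were RLE scaling, no filter, DESeq2 1.42.0, limma 3.58.1 (voom, and log2(TPM + 1) or log2(TPM + 0.1)), a replicate block, the 2 compared groups alone, a threshold of 0.01 and leaving out each tumor. Removal of a GC and length trend per tumor, leaving out 5 tumors (4 h tumor 2, with the highest fibroblast marker sum, and the 4 with the highest muscle, fat and red cell sums), and ratios from TPM were added after the data had been seen.

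Values in every tumor are printed for genes called in 2 or more comparisons with vehicle (up to 16, smallest F test p first) and for the 3 most expressed never called. From the other pathway lists at most 4 called genes a list, by smallest F test p, and the most expressed one not called are named. All but 1 gene of those lists entered the counts, and that gene is not reported here. IFIT2, DDX60, EPSTI1, OAS2, BST2, IFITM1, MX1, MX2, HERC6, IFI44L and ISG15 were chosen after their values were seen. The 42 members and all lists were chosen with earlier results of these data known. Each tumor came from its own animal, and p-values measure the spread between tumors of 1 cell line. GENCODE release 29 coordinates were read for 57972 gene IDs and symbols for 60219. Promoters are from RefSeq on GRCh38.p14.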

Additional observations from a re-analysis of the deposited data

Results flagged for a closer look

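Among 114 groups of 4 tumors of the genes given by tumor, 9 held a tumor that stood apart by Dixon's test at the 95% level, which chance gives in about 1 in 20 groups. In 4 h tumor 2, IFITM2 was the lowest at 83.4 CPM and IFITM3 the lowest at 63.3 CPM. In 24 h tumor 1, IFITM2 was the lowest at 118.9 CPM. In 24 h tumor 3, SAMD9L was the lowest at 38.5 CPM and STAT2 the lowest at 65.4 CPM. In 48 h tumor 3, OAS3 was the highest at 274.2 CPM, and in 48 h tumor 1 PSMB9 was the lowest at 23.7 CPM. In 8 h tumor 2, PSMB9 was the lowest at 30.5 CPM, and in 8 h tumor 3 LGALS3BP was the lowest at 210.0 CPM.

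Changes of 3 genes differed between times after dosing by the edgeR test of the difference. OAS1 was lower at 8 h than at 2 h by a log2 fold change of -0.492 (adjusted p = 0.0461) and higher at 24 h than at 8 h by 0.774 (adjusted p = 0.00109). OAS3 was higher at 24 h than at 8 h by 0.945 (adjusted p = 0.0252). SAMD9L was higher at 8 h than at 2 h by 0.737 (adjusted p = 0.0443) and lower at 48 h than at 24 h by -0.760 (adjusted p = 0.0394). Leaving out any 1 tumor kept the OAS1 difference of 24 h against 8 h, and each of the others was lost without at least 4 of the 8 tumors compared.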

How the results depend on the processing

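No alternative turned the direction of a named gene that was called. Of 49 calls of the named genes, the limma-voom fit kept 49, RLE scaling and DESeq2 48 each, the GC and length trend 42, the 2 groups alone and the set without the 5 tumors with high host marker sums 44 each, no filter 37, and either TPM scale 28. Leaving out 1 tumor lost a call in 65 of 392 fits and gave 4 new ones in 368.

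The counts of the 42 genes under the alternatives below are given without the share of all genes called under the same alternative. They therefore do not tell whether a shift is particular to these genes. At a threshold of 0.01, 8 of 42 genes were called at 2 h against vehicle, 1 at 4 h and 10 at 8 h. Without the filter 2 were called at 4 h and 13 at 8 h. On log2(TPM + 1) and on log2(TPM + 0.1) the counts were 0 and 0 at 4 h, 13 and 13 at 8 h, and 5 and 5 at 24 h. With 1 tumor left out the counts were 10 to 15 at 2 h and 2 to 6 at 4 h. They were 14 to 18 at 8 h, 10 to 13 at 24 h and 3 to 6 at 48 h. The 6 genes at 4 h came without 4 h tumor 2. These TPM scales moved the median of all genes, by -0.152 at 2 h, -0.191 at 8 h and -0.108 at 24 h on log2(TPM + 1), and no filter by -0.102 at 2 h.

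At 8 h against 2 h (2 called) RLE scaling gave 1, and 0 were called without the filter, on both TPM scales, with the 2 groups alone, without the 5 tumors and at 0.01, with 0 to 2 on leaving out 1 tumor. At 24 h against 8 h (2 called) 1 was called without the filter, on both TPM scales, without the 5 tumors and at 0.01, 0 with the 2 groups alone, and 1 to 6 with 1 tumor left out, the 6 without 24 h tumor 1. At 48 h against 24 h (1 called) RLE scaling and limma-voom gave 2, DESeq2 and the removed trend 3, and both TPM scales, the 2 groups alone, the 5 tumors left out and 0.01 gave 0, with 0 to 2 on leaving out 1 tumor. The causes of these shifts were not tested.

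Of 60 same-numbered pairs of tumors 20 had deviations that correlated above 0.1 (mean -0.013). Pairs with different numbers were not computed, so whether replicate numbers pair tumors cannot be judged from these values. With the replicate block, 15, 3, 18, 11 and 4 genes were called at 2, 4, 8, 24 and 48 h against vehicle, and 19 by the F test. It called 0 at 8 h against 2 h and 2 at 48 h against 24 h. The calls against vehicle lost under the block were HERC5 at 4 h (adjusted p = 0.0681), OASL at 8 h (adjusted p = 0.0612) and OAS2 at 8 h (adjusted p = 0.0505). A change in the interferon genes with at most 7 counts in every tumor was not detectable at this depth.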
